A study of Homo sapiens with 5 samples.

Results

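C4-2B prostate cancer cells treated with soy isoflavone for 6 h were compared with cells given vehicle, gene by gene, on 2 of the 5 Affymetrix human genome arrays of the series. The treated cells received G2535, an isoflavone mixture, at 25 µM counted as its genistein, and the control cells received 0.1% DMSO for a time that the sources used here do not give. The other arrays of the series held cells on isoflavone for 72 h and cells on 25 µM BR-DIM (B-DIM in the sample labels), a formulated diindolylmethane, for 6 h and 48 h. All 5 conditions were labelled as the same line, kept in the same serum-containing medium, with 1 array each. No p-value, SD or test is therefore given, every value describes these arrays, and a change means a difference of 2-fold or more.

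Genistein, the main isoflavone of soy, binds estrogen receptors and is a classic inhibitor of protein tyrosine kinases. In prostate cancer cells it is best known for lowering androgen-driven expression, PSA above all, and for slowing growth. C4-2B is a bone-metastatic derivative of LNCaP, a luminal line that makes PSA, carries E-cadherin at its cell contacts and responds to androgen.

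Each gene was read from 1 probe set, the brightest of the gene except for genes of the study's own list, which kept the probe set of that list. Signals are linear intensities, and any under 97.1, which is the median over all probe sets and arrays, was set to that floor before the log2 ratio of isoflavone 6 h over control was taken. Of 54613 probe sets, 41091 carried 1 gene symbol and stood for 19775 genes, of which 12456 were measured, that is, exceeded the floor on either of the 2 arrays. The arrays had been scaled to a common level, with trimmed means between 498.1 and 498.4, and the floor was exceeded by 48.4% of probe sets after 6 h of isoflavone and by 49.5% in the control. Where 1 of the 2 signals was under the floor the ratio is a bound, and the fold is written as "at least".

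The label was checked against the defining genes of the line. KLK3, the gene of PSA, read 134 after 6 h of isoflavone and 4219 in the control, and FOLH1, the gene of the prostate-specific membrane antigen, 17.2 and 373 (FOLH1 was named after its values were seen). GSTP1, a glutathione transferase gene that is methylated and silent in LNCaP, lay between 5439 and 7582 on all 5 arrays, and VIM, the mesenchymal filament vimentin, between 22024 and 50009. The control thus held prostate genes of the line, while GSTP1 was high on every array, which is not as known for LNCaP. VIM was high on every array as well. The control also held the mesenchymal genes FN1 (9145), SNAI2 (3762), ZEB1 (2305) and CDH2 (2098), and 16 of 26 mesenchymal genes and EMT factors were measured. The isoflavone 6 h array also stood apart from most of the series together with BR-DIM 48 h: with BR-DIM for 48 h KLK3 was 11.8 and FOLH1 19.6, against 3560.0 and 591 with BR-DIM for 6 h. GSTT1, another glutathione transferase gene, picked after its values were seen, read 3.2 with isoflavone for 6 h and 4.2 with BR-DIM for 48 h. On the remaining arrays GSTT1 lay between 151.3 and 154.4, not far above the floor. Of the genes lower with isoflavone for 6 h, 127 of 477 (26.6%) also read lower by 2-fold or more with BR-DIM for 48 h than with it for 6 h, a comparison without the control array. They make up 26.7% of the 476 measured genes that were lower in that comparison, and those 476 are 3.82% of all measured genes. Without them 350 genes were lower and 140 higher. Whether the identity or state of the cells or the RNA on this array, rather than the agent, set these differences was not tested. With 1 array these cannot be told apart.

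With isoflavone for 6 h, 147 of 12456 measured genes (1.18%) were at least 2-fold higher and 477 (3.83%) at least 2-fold lower than in the control. Most genes hardly differed: 10132 (81.3%) lay within 1.5-fold and the median log2 ratio was 0.0038. The counts and median of each gene list below are to be read beside these shares and this median. The falls were the larger changes. KLK3 was 31.5-fold lower, and the luminal factor EHF, the adhesion gene CDH1 and the tumour antigen MAGEA6 at least 18.8-fold lower, while the largest rise, the matricellular gene CCN2, was 10.1-fold and the next ones, RCBTB2 and the asparagine synthetase gene ASNS, were 5.08-fold and 4.40-fold. Of the lower genes 145 of 477 were bounds, as were 25 of the 147 higher ones. At the 2-fold limit itself, ERMARD (log2 ratio 1.0006) was just inside and ALDH8A1 (0.9964) just outside on the higher side, and LRRC45 (-1.0022) inside and GCA (-0.9996) just outside on the lower side.

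**Figure D1:**
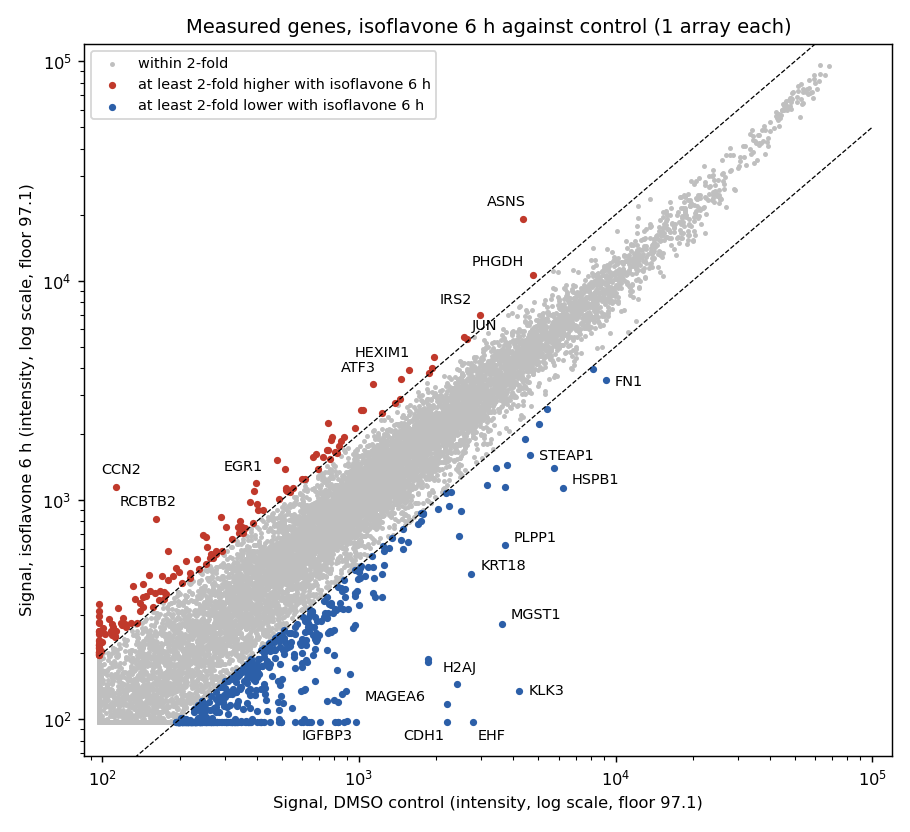
Signal of every measured gene with isoflavone for 6 h (vertical axis) against the DMSO control (horizontal axis), both in intensity units on log scales with signals under 97.1 raised to that floor; 1 point is 1 gene and dashed lines mark 2-fold. The 147 higher genes (red) lie near the upper line apart from CCN2, RCBTB2 and ASNS, while many of the 477 lower genes (blue) lie on the floor, and KLK3, EHF and CDH1 lie far below the line.

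The lower genes were mainly low on the isoflavone 6 h array itself. Their median signal was 137 with isoflavone for 6 h, 395 with isoflavone for 72 h, 413 after 6 h and 305 after 48 h of BR-DIM, and 401 in the control. Isoflavone 6 h held the lowest of the 5 signals for 384 of the 477 (80.5%), beside 23.9% of all measured genes, and the control held the highest for 148 (31.0%, beside 17.1% of all measured genes). For the higher genes the control was the more extreme array. Isoflavone 6 h held the highest signal for 98 of the 147 (66.7%, beside 21.4% of all measured genes) and the control the lowest for 112 (76.2%, beside 2487 of all 12456 measured genes). Their median signal was 513 with isoflavone for 6 h, between 369 and 436 on the other treated arrays, and 213 in the control. Since these genes were picked for being low or high on the same 2 arrays, the counts are a description.

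Kallikreins are serine proteases, and KLK3, KLK2 and KLK4 are the prostate ones, switched on by androgen through response elements near the gene. KLK3 read 134 with isoflavone for 6 h and 1389 for 72 h, 3560.0 after 6 h and 11.8 after 48 h of BR-DIM, and 4219 in the control (log2 ratio -4.98, 31.5-fold lower). The isoflavone 6 h and BR-DIM 48 h arrays were low and the others high. A second KLK3 probe set read 269.5 with isoflavone for 6 h and 1545 for 72 h, 3424 after 6 h and 14.6 after 48 h of BR-DIM, and 5096 in the control (log2 ratio -4.24), and the third, dim on every array, 194 with isoflavone for 6 h and 233 for 72 h, 302 after 6 h and 239.6 after 48 h of BR-DIM, and 267 in the control (-0.46). KLK2 read 11.4 with isoflavone for 6 h and 124 for 72 h, 525 after 6 h and 7.2 after 48 h of BR-DIM, and 707 in the control (log2 ratio -2.86, at least 7.28-fold lower). KLK4 read 67.2 after 6 h of isoflavone and 253 in the control (log2 ratio -1.38, at least 2.60-fold lower). The tissue kallikrein gene KLK1, which is not prostate-specific, was -0.34, and KLK12 and KLK13 lay close to the floor. In all, 0 of 6 measured genes were at least 2-fold higher and 3 lower (median log2 ratio -0.86).

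The promoter of KLK3 is shown because KLK3 had the largest fall and is the textbook androgen target. The line gives the 250 bases before the RefSeq start of the gene (GRCh38.p14, chr19:50854665-50854914, plus strand), with the letters AGAACA, a half-site of the androgen response element, in capitals.
KLK3: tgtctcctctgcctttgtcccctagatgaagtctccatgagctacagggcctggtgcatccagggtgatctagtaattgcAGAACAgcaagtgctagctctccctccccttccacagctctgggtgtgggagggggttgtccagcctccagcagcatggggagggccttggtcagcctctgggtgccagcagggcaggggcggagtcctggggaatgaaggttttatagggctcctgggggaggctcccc
The match starts 170 bases before the start of the gene. AGAACA or its reverse complement TGTTCT occurs in 12.4% of the 27305 RefSeq promoters cut in the same way, so a match alone marks no androgen target.

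Other androgen-induced genes were lower too, though less evenly. Of them, 0 of 17 measured genes were at least 2-fold higher and 5 lower (median log2 ratio -0.71). PLPP1, a lipid phosphatase, read 622 after 6 h of isoflavone and 3703 in the control (log2 ratio -2.57, 5.96-fold lower). TMPRSS2, the protease gene whose promoter is fused to ERG in many prostate tumours, read 5.3 after 6 h of isoflavone and 339 in the control (log2 ratio -1.80, at least 3.49-fold lower). The cation channel gene TRPM8 read 68.9 after 6 h of isoflavone and 369.9 in the control (log2 ratio -1.93, at least 3.81-fold lower). The metalloreductase STEAP2 read 887 after 6 h of isoflavone and 2505 in the control (log2 ratio -1.50, 2.82-fold lower) and its neighbour STEAP1, named after its values were seen, 1606 after 6 h of isoflavone and 4626 in the control (log2 ratio -1.53, 2.88-fold lower). C1orf116 was -1.43, a bound, and the other measured members were within 2-fold. Among them FKBP5, a cochaperone that androgen and glucocorticoid both induce, was -0.17, the transporter SLC45A3 -0.14, and the stress and androgen gene NDRG1 0.80. Of the enzymes that make or inactivate androgen, 0 of 8 measured genes were at least 2-fold higher and 0 lower (median log2 ratio 0.26), a share near that of all measured genes (1.18% and 3.83%), and the 5α-reductase gene SRD5A1 was 0.48.

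Factors that keep prostate luminal identity were lower as well. Of the luminal factors, 0 of 11 measured genes were at least 2-fold higher and 4 lower (median log2 ratio -0.57). EHF, an ETS factor of epithelia, read 91.8 with isoflavone for 6 h and 4347 for 72 h, 2296 after 6 h and 33.5 after 48 h of BR-DIM, and 2775 in the control (log2 ratio -4.84, at least 28.6-fold lower). GRHL2, a grainyhead factor that maintains E-cadherin, read 85.9 after 6 h of isoflavone and 831 in the control (log2 ratio -3.10, at least 8.56-fold lower). FOXA1, which opens chromatin for hormone receptors, read 62.5 after 6 h of isoflavone and 425 in the control (log2 ratio -2.13, at least 4.38-fold lower), and HOXB13, the homeobox gene of the prostate, 174 after 6 h of isoflavone and 601 in the control (log2 ratio -1.79, 3.46-fold lower). SPDEF (-0.95), GATA2 (-0.57) and SOX9 (-0.51) were lower by less than 2-fold.

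Genes of cell contacts and of the epithelial skeleton made up the broadest fall. Of the junction and adhesion genes, 0 of 22 measured genes were at least 2-fold higher and 9 lower (median log2 ratio -0.87), and 20 of the 22 were below the control. CDH1, which encodes E-cadherin, read 85.9 with isoflavone for 6 h and 3736 for 72 h, 2114 after 6 h and 99.5 after 48 h of BR-DIM, and 2195 in the control (log2 ratio -4.50, at least 22.6-fold lower). Its other probe set read 19.3 with isoflavone for 6 h and 321 for 72 h, 350.0 after 6 h and 4.2 after 48 h of BR-DIM, and 298 in the control (-1.62, also a bound). The tight junction gene CLDN7 read 48.8 after 6 h of isoflavone and 593 in the control (log2 ratio -2.61, at least 6.10-fold lower) and the adhesion molecule EPCAM 138 after 6 h of isoflavone and 615 in the control (log2 ratio -2.16, 4.46-fold lower). Desmosome genes were lower by less, with PKP3 at -1.64, a bound, and DSC2 at -1.13. OCLN, the tight junction gene occludin, sat at the 2-fold limit (869.7 after 6 h of isoflavone and 1742 in the control). The catenins that link E-cadherin to actin were within 2-fold, CTNNB1 at -0.35 and CTNNA1 at 0.41.

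Of the epithelial keratins, factors and splicing regulators, 1 of 16 measured genes were at least 2-fold higher and 12 lower (median log2 ratio -1.81). This list shares EHF, GRHL2 and ELF3 with that of the luminal factors. KRT18, a simple epithelial keratin, read 461 with isoflavone for 6 h and 2679.9 for 72 h, 2939.8 after 6 h and 1033 after 48 h of BR-DIM, and 2739 in the control (log2 ratio -2.57, 5.94-fold lower), and its partner KRT8 131 after 6 h of isoflavone and 429 in the control (log2 ratio -1.71, 3.28-fold lower). The protease inhibitors SPINT2 and SPINT1 were -2.80 and, as a bound, -1.93, and their target protease gene ST14, matriptase, was -1.24, also a bound. The epithelial splicing regulator ESRP1 read 10.4 after 6 h of isoflavone and 375 in the control (log2 ratio -1.95, at least 3.86-fold lower), and the small GTPase RAB25 90.3 after 6 h of isoflavone and 334 in the control (log2 ratio -1.78, at least 3.44-fold lower). The one member above 2-fold was KRT7, a keratin of ducts, at 211 after 6 h of isoflavone and 97.2 in the control (log2 ratio 1.12, 2.17-fold higher), and both signals are near the floor.

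Mesenchymal genes lay on both sides of the control, 8 above and 8 below. Of the mesenchymal genes and EMT factors, 0 of 16 measured genes were at least 2-fold higher and 1 lower (median log2 ratio 0.08). With 16 genes these counts are near the shares of all measured genes (1.18% and 3.83%). VIM read 33275 with isoflavone for 6 h and 40167 for 72 h, 30013 after 6 h and 50009 after 48 h of BR-DIM, and 22024 in the control (log2 ratio 0.60, 1.51-fold higher). The repressors of E-cadherin SNAI2 (0.27), TWIST1 (0.30) and ZEB1 (-0.15) were within 2-fold, as was N-cadherin, CDH2 (0.36). FN1, which encodes the matrix protein fibronectin, was the lower member, at 3511 with isoflavone for 6 h and 13580.3 for 72 h, 10852 after 6 h and 6262 after 48 h of BR-DIM, and 9145 in the control (log2 ratio -1.38, 2.60-fold lower), and 4 further FN1 probe sets lay between -1.72 and -1.24. Of the genes that mark prostate lines without androgen response, 0 of 7 measured genes were at least 2-fold higher and 1 lower (median log2 ratio 0.09). The lower one was CAV1, which encodes caveolin (-1.18), and GSTP1 was 0.09 and CD44 -0.43.

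**Figure D2:**
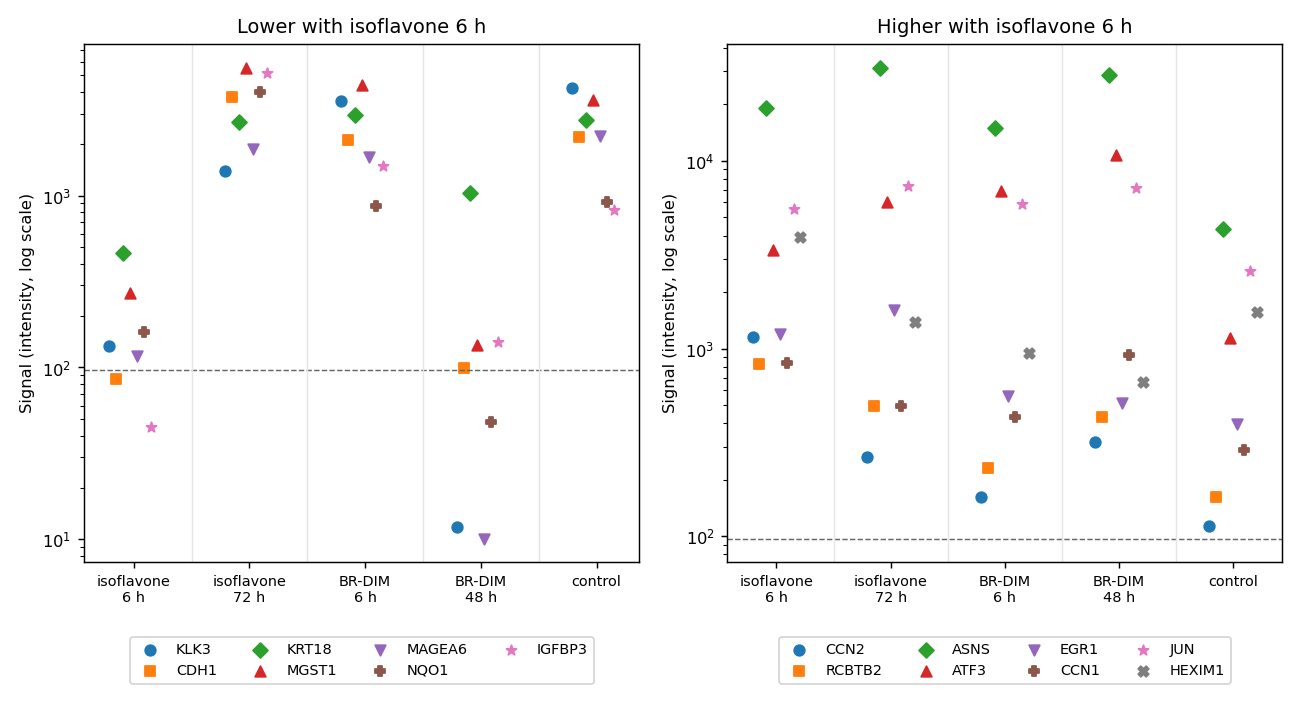
Signal (intensity, log scale) on each array of 7 genes that were lower (left) and 8 that were higher (right) with isoflavone for 6 h; 1 point is 1 array, points are spread sideways to keep them apart, and the dashed line is the floor of 97.1. KLK3, CDH1, MGST1 and MAGEA6 are low on isoflavone 6 h and BR-DIM 48 h and high on the other arrays, while ASNS, ATF3 and JUN are above the control on all 4 treated arrays.

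Cancer-testis antigens, which are silent in most adult tissue outside the testis and switched on in tumours, stood among the largest falls. The list was drawn up after their values had been seen, so the count is only a description: 0 of 6 measured genes were at least 2-fold higher and 5 lower (median log2 ratio -3.11). MAGEA6 read 117 with isoflavone for 6 h and 1871 for 72 h, 1679.8 after 6 h and 10.1 after 48 h of BR-DIM, and 2210.3 in the control (log2 ratio -4.24, 18.8-fold lower). PAGE1 read 182 with isoflavone for 6 h and 1524 for 72 h, 2034 after 6 h and 8.4 after 48 h of BR-DIM, and 1863 in the control (log2 ratio -3.35, 10.2-fold lower). MAGEA12 read 54.1 after 6 h of isoflavone and 874 in the control (log2 ratio -3.17, at least 9.0-fold lower), MAGEA1 81.3 after 6 h of isoflavone and 804 in the control (log2 ratio -3.05, at least 8.27-fold lower) and PRAME 10.1 after 6 h of isoflavone and 293 in the control (log2 ratio -1.59, at least 3.01-fold lower). Probes for MAGEA genes can read near-identical copies, so the members are not certain to be separate. H2AJ, a replication-independent histone variant, read 145 with isoflavone for 6 h and 2659.6 for 72 h, 2954 after 6 h and 30.5 after 48 h of BR-DIM, and 2406 in the control (log2 ratio -4.06, 16.6-fold lower). For these genes as for KLK3, isoflavone 6 h and BR-DIM 48 h were the low arrays.

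Further large falls shared no single role. MME, which encodes the peptidase neprilysin, read 189 after 6 h of isoflavone and 1863 in the control (log2 ratio -3.30, 9.84-fold lower). TM4SF1, a tetraspanin-like membrane protein, read 19.2 after 6 h of isoflavone and 977 in the control (log2 ratio -3.33, at least 10.1-fold lower), and SDC1, the heparan sulfate proteoglycan syndecan-1, 135 after 6 h of isoflavone and 889.5 in the control (log2 ratio -2.72, 6.59-fold lower). On the BR-DIM 48 h array SDC1 read 1174, above the control. The epithelial genes were split there, with DSC2 and OCLN above the control and CDH1 and CLDN7 below it. NEDD4L, a ubiquitin ligase of ion channels, was -2.72, LCP1, the actin bundling protein L-plastin, -2.74, a bound, and PHLDA2, an imprinted growth-restraining gene, -3.18. NETO1, an auxiliary subunit of glutamate receptors, was -2.72, also a bound.

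Antioxidant and detoxifying genes split by member rather than by pathway. NRF2 drives genes that answer electrophiles, and of its targets 0 of 15 measured genes were at least 2-fold higher and 3 lower (median log2 ratio -0.16). NQO1, a quinone reductase, read 161 with isoflavone for 6 h and 3999.8 for 72 h, 866 after 6 h and 48.3 after 48 h of BR-DIM, and 919.6 in the control (log2 ratio -2.52, 5.73-fold lower), and its other probe sets were -2.02 and -0.86. HMOX1, the heme oxygenase gene, read 112 after 6 h of isoflavone and 229 in the control (log2 ratio -1.03, 2.05-fold lower), and SLC7A11, the cystine transporter, 235 after 6 h of isoflavone and 473 in the control (log2 ratio -1.01, 2.02-fold lower). The rate-setting genes of glutathione synthesis were within 2-fold and differed in sign, GCLC at 0.39 and GCLM at -0.56. Of the glutathione transferases and peroxidases, 0 of 20 measured genes were at least 2-fold higher and 1 lower (median log2 ratio 0.04). The lower one was MGST1, the microsomal transferase, at 272 with isoflavone for 6 h and 5558 for 72 h, 4371 after 6 h and 135 after 48 h of BR-DIM, and 3599 in the control (log2 ratio -3.73, 13.2-fold lower), with 2 further probe sets at -3.53 and -3.37. Of the aryl hydrocarbon receptor targets, 0 of 5 measured genes were at least 2-fold higher and 1 lower (median log2 ratio 0.05), and the lower one was again NQO1. Of the metallothioneins and zinc transporters, 0 of 13 measured genes were at least 2-fold higher and 1 lower (median log2 ratio -0.34). The lower one was MT1G at -1.04, and without the _s_at and _x_at probe sets it was read from another probe set, at 0.27.

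The amino acid response, in which ATF4 switches on genes for making and importing amino acids, was divided. 3 of 30 measured genes were at least 2-fold higher and 8 lower (median log2 ratio 0.07). ASNS, which makes asparagine, read 19146 with isoflavone for 6 h and 31413 for 72 h, 14932 after 6 h and 28562 after 48 h of BR-DIM, and 4353 in the control (log2 ratio 2.14, 4.40-fold higher). All 4 treated arrays were above the control. ATF3, a stress factor of the same network, read 3367 with isoflavone for 6 h and 6023 for 72 h, 6934 after 6 h and 10704 after 48 h of BR-DIM, and 1134 in the control (log2 ratio 1.57, 2.97-fold higher). Its other probe sets differed, at 0.99 and, as a bound and dim on both arrays, -0.69. PHGDH, the first enzyme of serine synthesis, read 10609 with isoflavone for 6 h and 7914 for 72 h, 6995 after 6 h and 9694 after 48 h of BR-DIM, and 4758 in the control (log2 ratio 1.16, 2.23-fold higher). Other members were lower than the control with isoflavone for 6 h and above it on most of the remaining treated arrays. NUPR1, a stress-induced chromatin protein, read 112 with isoflavone for 6 h and 1822 for 72 h, 2131 after 6 h and 235 after 48 h of BR-DIM, and 549 in the control (log2 ratio -2.29, 4.89-fold lower), so it was below the control with BR-DIM for 48 h as well. DDIT4, an inhibitor of mTORC1, read 182 with isoflavone for 6 h and 3347 for 72 h, 5359 after 6 h and 2726 after 48 h of BR-DIM, and 629.7 in the control (log2 ratio -1.79, 3.45-fold lower), and TRIB3, a pseudokinase that feeds back on ATF4, 305 with isoflavone for 6 h and 2167 for 72 h, 1985 after 6 h and 2048 after 48 h of BR-DIM, and 793 in the control (log2 ratio -1.38, 2.60-fold lower). GDF15, a stress cytokine, was -1.46, STC2, a secreted glycoprotein, -1.84, a bound, and PSPH, the last enzyme of serine synthesis, -1.28. VLDLR, a lipoprotein receptor, was -1.27, a bound, and SLC7A11, described above, -1.01. ATF4 itself was -0.35 and DDIT3, the factor CHOP, 0.05, with 327 after 6 h of isoflavone and 315 in the control. The remaining measured members lay within 2-fold, among them the serine enzyme PSAT1 (0.10) and the one-carbon enzyme MTHFD2 (0.28).

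The promoter of ASNS is shown because ASNS had one of the 3 largest rises and its response element is a model of this network. The 250 bases before its RefSeq start (GRCh38.p14, chr7:97872409-97872658, minus strand, written in the direction of the gene) hold 1 match to TGATGNAA, the letters of the C/EBP-ATF response element, in capitals.
ASNS: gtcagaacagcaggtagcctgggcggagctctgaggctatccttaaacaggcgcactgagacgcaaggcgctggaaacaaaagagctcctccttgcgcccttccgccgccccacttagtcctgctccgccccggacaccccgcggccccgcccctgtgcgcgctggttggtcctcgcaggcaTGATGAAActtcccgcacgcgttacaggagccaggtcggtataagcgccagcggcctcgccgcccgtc
The match starts 68 bases before the start of the gene. TGATGNAA or TTNCATCA occurs in 3.2% of all RefSeq promoters of this length, in 144 of the 10184 measured genes with a promoter in the table (1.4%) and in 5 of the 129 higher genes with one (3.9%). Promoters of the lower genes were too incomplete in the table for such a share.

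In the unfolded protein response of the endoplasmic reticulum, 0 of 21 measured genes were at least 2-fold higher and 0 lower (median log2 ratio 0.10). For a list of this size that is near the shares of all measured genes (1.18% and 3.83%). The largest ratios of this response were those of the cochaperones DNAJC3 (0.95) and DNAJB9 (0.95), and HSPA5, the chaperone BiP, was 0.50. Among the cytosolic heat shock proteins, 0 of 14 measured genes were at least 2-fold higher and 1 lower (median log2 ratio -0.31). The lower one was HSPB1, the small heat shock protein HSP27, at 1140.3 with isoflavone for 6 h and 5631 for 72 h, 8454 after 6 h and 1136 after 48 h of BR-DIM, and 6227 in the control (log2 ratio -2.45, 5.46-fold lower).

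Of the factors that cells induce within minutes to hours of a stimulus, 5 of 17 measured genes were at least 2-fold higher and 0 lower (median log2 ratio 0.39), beside 1.18% higher and 3.83% lower of all measured genes. The list held 5 of the 147 higher genes. CCN2, the connective tissue growth factor gene, read 1145 with isoflavone for 6 h and 265 for 72 h, 163 after 6 h and 318 after 48 h of BR-DIM, and 113 in the control (log2 ratio 3.34, 10.1-fold higher), so the isoflavone 6 h array was higher than each other array. Its relative CCN1 read 836 with isoflavone for 6 h and 494 for 72 h, 429 after 6 h and 927 after 48 h of BR-DIM, and 289 in the control (log2 ratio 1.53, 2.89-fold higher), and its other probe set agreed closely (1.64). EGR1, a zinc finger factor of growth signals, read 1189.7 with isoflavone for 6 h and 1597 for 72 h, 555 after 6 h and 509.6 after 48 h of BR-DIM, and 396 in the control (log2 ratio 1.59, 3.00-fold higher), with dimmer probe sets at 0.91 and, as a bound, 0.65. JUN, a subunit of AP-1, read 5544 with isoflavone for 6 h and 7379.5 for 72 h, 5897 after 6 h and 7142 after 48 h of BR-DIM, and 2575 in the control (log2 ratio 1.11, 2.15-fold higher), and its other probe sets were 1.10, 0.96 and 0.49. ATF3 is counted here as well. JUNB (-0.12), IER2 (0.12), IER3 (0.07) and NR4A1 (-0.56) were within 2-fold, and FOS and FOSB were not measured. MYC was 0.39. Of the DUSP phosphatases and Sprouty genes, feedback genes that MAP kinase signals induce, 0 of 14 measured genes were at least 2-fold higher and 0 lower (median log2 ratio -0.07).

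CCN1 and CCN2 are also the standard targets of YAP, the effector of the Hippo pathway, which acts through TEAD factors. On a list of Hippo genes drawn up after the values were seen, 3 of 12 measured genes were at least 2-fold higher and 0 lower (median log2 ratio 0.14). The third higher one was AMOTL2, a feedback gene of the pathway, at 957 with isoflavone for 6 h and 554 for 72 h, 426 after 6 h and 498 after 48 h of BR-DIM, and 399 in the control (log2 ratio 1.26, 2.40-fold higher). YAP1 itself was -0.63, its relative WWTR1 -0.19, TEAD1 0.19, and the targets AJUBA and CRIM1 -0.96 and 0.10. The promoter of CCN2 is shown because CCN2 had the largest rise. Its 250 bases before the RefSeq start (GRCh38.p14, chr6:131951373-131951622, minus strand, written in the direction of the gene) hold 3 copies of GGAATG, the letters of a TEAD element, in capitals.
CCN2: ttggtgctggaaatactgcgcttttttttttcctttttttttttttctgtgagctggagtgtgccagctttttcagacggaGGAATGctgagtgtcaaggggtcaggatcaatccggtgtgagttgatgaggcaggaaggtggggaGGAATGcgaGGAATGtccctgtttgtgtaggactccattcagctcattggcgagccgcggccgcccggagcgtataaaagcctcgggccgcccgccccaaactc
The copies start 169, 104 and 95 bases before the start of the gene. At least 1 copy of GGAATG or CATTCC occurs in 11.9% of all RefSeq promoters of this length, in 9.1% of those of the measured genes and in 9.3% of those of the higher genes.

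Further genes among the largest rises shared no single role. RCBTB2 read 822 with isoflavone for 6 h and 497 for 72 h, 231 after 6 h and 433 after 48 h of BR-DIM, and 162 in the control (log2 ratio 2.35, 5.08-fold higher). CGA, the shared subunit of the glycoprotein hormones, read 584 after 6 h of isoflavone and 180.2 in the control (log2 ratio 1.70, 3.24-fold higher). LIFR, the receptor of leukemia inhibitory factor, read 1526 with isoflavone for 6 h and 1413 for 72 h, 1372 after 6 h and 2062 after 48 h of BR-DIM, and 479.5 in the control (log2 ratio 1.67, 3.18-fold higher), but its other 3 measured probe sets lay between 0.15 and 0.32. GGT7, of the gamma-glutamyltransferase family, was 1.61, and the antisense transcript SCAMP1-AS1 1.59. DET1, an adaptor of a ubiquitin ligase that destroys JUN, read 2246 after 6 h of isoflavone and 758 in the control (log2 ratio 1.57, 2.96-fold higher). WDPCP, a gene of cilium assembly, was 1.53, TMEM39B 1.49, SERPINF1, which encodes the antiangiogenic factor PEDF, 1.49, and SERPINI1, neuroserpin, 1.42. METTL15, a methyltransferase of mitochondrial ribosomal RNA, was 1.42, ZCCHC12 1.39, and RXRB, a retinoid X receptor, 1.38. The histone gene H2AC25 was 1.33 and EPM2A, the glycogen phosphatase laforin, 1.33. HEXIM1, an inhibitor of the elongation kinase P-TEFb that was named after its values were seen, read 3918 with isoflavone for 6 h and 1384 for 72 h, 946 after 6 h and 666 after 48 h of BR-DIM, and 1569 in the control (log2 ratio 1.32, 2.50-fold higher). HEXIM1 was thus highest on isoflavone 6 h and below the control on the remaining treated arrays. Its second probe set was 0.80 and a dim one -0.53, a bound.

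**Figure D3:**
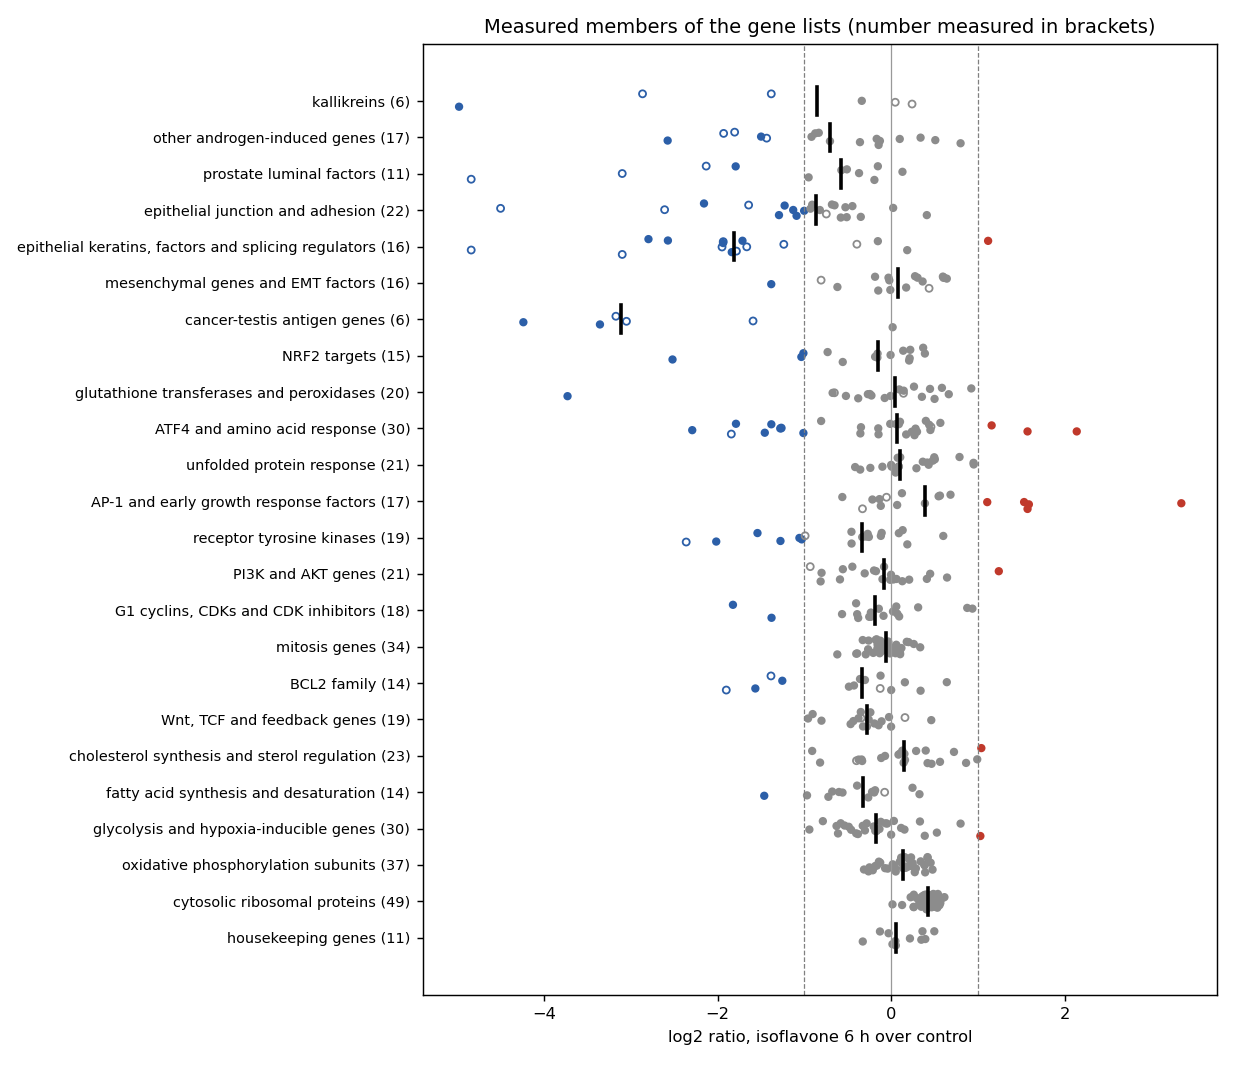
Log2 ratio of isoflavone 6 h over control (horizontal axis) of the measured members of 24 gene lists (rows, with the number measured); 1 point is 1 gene, drawn open where its ratio is a bound, vertical bars give the median of a list, dashed lines stand at 2-fold, and red and blue are genes past it. The lists of epithelial keratins and factors and of cancer-testis antigens have their medians below -1 (the cancer-testis list was drawn up after its values were seen), while the ribosomal proteins form a tight group above 0.

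Receptor tyrosine kinases, the enzymes upstream of growth signalling, were more often lower. Of them, 0 of 19 measured genes were at least 2-fold higher and 6 lower (median log2 ratio -0.33), beside 1.18% and 3.83% of all measured genes. Among all measured genes whose higher signal was 400 to 1000, 6.28% were lower. ERBB3, the neuregulin receptor, read 16.2 with isoflavone for 6 h and 433 for 72 h, 609 after 6 h and 107 after 48 h of BR-DIM, and 499 in the control (log2 ratio -2.36, at least 5.14-fold lower). TYRO3 and MERTK, receptors for GAS6, were -2.01 and -1.54, and FGFR4 -1.28. EGFR read 399.6 after 6 h of isoflavone and 831 in the control (log2 ratio -1.06, 2.08-fold lower), and its 3 other measured probe sets lay between -1.23 and -1.02, the last a bound. MET, the hepatocyte growth factor receptor, read 316 after 6 h of isoflavone and 645 in the control (log2 ratio -1.03, 2.04-fold lower). IGF1R (-0.11), INSR (-0.12) and ERBB2 (-0.46) were within 2-fold.

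The PI3K and AKT genes act below the receptors. Of them, 1 of 21 measured genes were at least 2-fold higher and 0 lower (median log2 ratio -0.08). For a list of this size these counts are near the shares of all measured genes (1.18% and 3.83%). The higher one was IRS2, the insulin receptor substrate, at 6977 with isoflavone for 6 h and 5113 for 72 h, 3847 after 6 h and 6923 after 48 h of BR-DIM, and 2955 in the control (log2 ratio 1.24, 2.36-fold higher), with its other probe set at 0.64. AKT1 was -0.81, IRS1 -0.56 and the phosphatase gene INPP4B -0.93, a bound. IGFBP3, which binds insulin-like growth factors outside the cell, was the one changed member of the IGF binding proteins and read 45.0 with isoflavone for 6 h and 5164 for 72 h, 1478 after 6 h and 140.4 after 48 h of BR-DIM, and 825 in the control (log2 ratio -3.09, at least 8.50-fold lower). Its other probe set was -2.17, also a bound. IGFBP2 was -0.60.

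The cell cycle machinery was close to the control after 6 h. Of the mitosis genes, 0 of 34 measured genes were at least 2-fold higher and 0 lower (median log2 ratio -0.06), and the proliferation marker MKI67 was -0.16. Of the DNA replication genes, 0 of 36 measured genes were at least 2-fold higher and 0 lower (median log2 ratio 0.10), with the widest values at CDT1, a licensing factor (-0.79), and LIG1, a DNA ligase (0.88). Of the G1 cyclins, CDKs and their inhibitors, 0 of 18 measured genes were at least 2-fold higher and 2 lower (median log2 ratio -0.19). CCND1, the cyclin D1 gene, was read from the probe set of the study's list, which is not its brightest, and gave 97.8 with isoflavone for 6 h and 111 for 72 h, 182 after 6 h and 232 after 48 h of BR-DIM, and 346 in the control (log2 ratio -1.82, 3.54-fold lower), while its brighter probe set read 796 with isoflavone for 6 h and 876 for 72 h, 742 after 6 h and 516 after 48 h of BR-DIM, and 1264 in the control (-0.67). By the brighter probe set CCND1 was within 2-fold and RB1 was the only lower member. RB1, which holds cells in G1, read 314 after 6 h of isoflavone and 817 in the control (log2 ratio -1.38, 2.60-fold lower), and its other probe set was -0.08. CDKN1A, the p21 gene, was -0.57 and CDKN1B, the p27 gene, 0.07, whereas CDKN2B (0.88) and CDKN2D (0.94), inhibitors of CDK4, approached 2-fold. Of the p53 targets, 0 of 22 measured genes were at least 2-fold higher and 0 lower (median log2 ratio -0.01). For lists of this size the counts of 0 among mitosis, DNA replication and p53 genes are near the shares of all measured genes (1.18% and 3.83%).

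In the BCL2 family, which sets the threshold of apoptosis, 0 of 14 measured genes were at least 2-fold higher and 4 lower (median log2 ratio -0.33). The lower ones belonged to both camps. BCL2L1, which encodes the survival protein BCL-XL, read 145 after 6 h of isoflavone and 427 in the control (log2 ratio -1.56, 2.96-fold lower), with other probe sets at -1.10, a bound, and -0.43. The death-promoting BAK1 read 176 after 6 h of isoflavone and 419.5 in the control (log2 ratio -1.25, 2.38-fold lower), BIK 95.9 after 6 h of isoflavone and 362 in the control (log2 ratio -1.90, at least 3.73-fold lower) and BOK 69.2 after 6 h of isoflavone and 254 in the control (log2 ratio -1.38, at least 2.61-fold lower). MCL1 (0.0), BCL2 (-0.30) and BAX (-0.12) were within 2-fold.

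Genes that respond to other hormones were read in the same way. Genistein binds estrogen receptors. Of the estrogen-responsive genes, 0 of 14 measured genes were at least 2-fold higher and 3 lower (median log2 ratio -0.19). Of all measured genes 1.18% were higher and 3.83% lower. In the estrogen list 9 genes were below the control and 5 above it. CA12, a carbonic anhydrase, read 127 after 6 h of isoflavone and 499 in the control (log2 ratio -1.97, 3.92-fold lower), and MYB 95.0 after 6 h of isoflavone and 289 in the control (log2 ratio -1.57, at least 2.98-fold lower). The third was STC2. GREB1 was -0.07, a bound, PGR -0.48 and XBP1 0.10. Of the glucocorticoid-induced genes, 1 of 10 measured genes were at least 2-fold higher and 1 lower (median log2 ratio -0.10), which were SGK1, a kinase of salt balance (549 after 6 h of isoflavone and 270.2 in the control, log2 ratio 1.02, 2.03-fold higher), and ZBTB16, a zinc finger repressor (7.3 after 6 h of isoflavone and 267 in the control, log2 ratio -1.46, at least 2.75-fold lower).

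Signalling genes linked to bone were examined as well, since C4-2B grows in bone. The genes of RANKL itself, TNFSF11 (73.9 after 6 h of isoflavone and 12.8 in the control), and of osteoprotegerin, TNFRSF11B (9.0 and 41.5), were under the floor and not measured. Of the RANKL pathway genes, 1 of 24 measured genes were at least 2-fold higher and 1 lower (median log2 ratio -0.07). They were JUN and PPP3CA, a catalytic subunit of calcineurin, at 2224 after 6 h of isoflavone and 5036 in the control (log2 ratio -1.18, 2.26-fold lower). MITF, an osteoclast and melanocyte factor, was -0.93 by its main probe set and 0.15 by another. Of the BMP, SMAD and ID genes, 0 of 22 measured genes were at least 2-fold higher and 3 lower (median log2 ratio -0.28), namely the receptor BMPR1B (-1.48), the ligand BMP7 (-1.20) and the antagonist NOG (-1.08). ID4 was 0.96. Of the Wnt genes 0 of 19 measured genes were at least 2-fold higher and 0 lower (median log2 ratio -0.28, beside 0.0038 over all measured genes). In this list 17 of the 19 were below the control, with AXIN2, a feedback target, at -0.90 and LGR5 at -0.96. Of the NF-kB factors and targets, 0 of 12 measured genes were at least 2-fold higher and 0 lower (median log2 ratio 0.03). On a list of interferon-induced genes drawn up after the values were seen, 0 of 9 measured genes were at least 2-fold higher and 3 lower (median log2 ratio -0.34), namely IRF1 (-1.71), ISG15 (-1.62) and IFIT1 (-1.38, a bound).

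The metabolic lists held few genes past 2-fold, near the shares of all measured genes (1.18% and 3.83%) for lists of their size. Of the cholesterol genes 1 of 23 measured genes were at least 2-fold higher and 0 lower (median log2 ratio 0.14). The higher one was HMGCS1, an early enzyme of the pathway (1662 after 6 h of isoflavone and 809 in the control, log2 ratio 1.04, 2.05-fold higher), SC5D (0.99) and IDI1 (0.86) came close, and SREBF1 was -0.91. Of the fatty acid genes 0 of 14 measured genes were at least 2-fold higher and 1 lower (median log2 ratio -0.33), the lower one being the desaturase FADS2 (-1.46), and FASN was -0.72. Of the glycolytic and hypoxia-inducible genes 1 of 30 measured genes were at least 2-fold higher and 0 lower (median log2 ratio -0.18), the higher one being the glucose transporter SLC2A1 (786 after 6 h of isoflavone and 386 in the control, log2 ratio 1.03, 2.04-fold higher). Of the oxidative phosphorylation subunits, 0 of 37 measured genes were at least 2-fold higher and 0 lower (median log2 ratio 0.14). By direction alone, 12 of the 14 fatty acid genes and 22 of the 30 glycolytic and hypoxia-inducible genes were below the control. Above it were 15 of the 23 cholesterol genes and 27 of the 37 oxidative phosphorylation subunits.

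All 49 measured ribosomal protein genes were above the control, by log2 ratios between 0.02 and 0.61 (median 0.42), and none reached 2-fold. With quantile normalization their median was 0.01, so the direction rests on the scaling. Of the housekeeping genes 0 of 11 measured genes were at least 2-fold higher and 0 lower (median log2 ratio 0.05), with ACTB at 0.36 and GAPDH at 0.50, and their median was -0.05 with quantile normalization. Of the proteasome, lysosome and autophagy genes 0 were changed 2-fold, with medians of -0.06 over 27, -0.02 over 21 and 0.12 over 18 measured genes. Of the histone deacetylase, DNA methyltransferase and Polycomb genes 0 of 21 were changed, with HDAC11 at 0.96 and DNMT3A at -0.78. Of the tubulins, 0 of 12 measured genes were at least 2-fold higher and 1 lower (median log2 ratio -0.25), the lower one being TUBA4A (376 after 6 h of isoflavone and 1132 in the control, log2 ratio -1.59, 3.01-fold lower).

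Markers of other cells were sought, since a culture can hold or be mixed with them. Of 7 endothelial markers with a probe set 0 were measured, and of 7 lymphocyte markers 1 (CD79A, -0.03, a bound). Of 8 macrophage and osteoclast markers 2 were measured (ITGAM, 0.41, a bound, and CTSK, 0.45). Of 8 osteoblast markers 2 were measured (RUNX2, -1.69, a bound, and COL1A1, -0.62). Of 6 neuroendocrine markers 3 were measured, with INSM1 the changed one (-1.17, a bound). None of these 8 measured markers was 2-fold higher with isoflavone for 6 h. For 8 genes that is near the share of all measured genes (1.18%), so the count cannot show whether other cells were present.

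The 2 times of isoflavone share the control array, so their values are only set side by side. Of the genes lower at 6 h, several were above the control at 72 h. NQO1 read 161 at 6 h, 3999.8 at 72 h and 919.6 in the control, and IGFBP3 45.0, 5164 and 825. CDH1 read 85.9 at 6 h, 3736 at 72 h and 2195 in the control, and STEAP2 887, 5316 and 2505. KLK3 and KLK2 stayed below the control at both times, at 134 and 1389 against 4219 for KLK3 and 11.4 and 124 against 707 for KLK2. VEGFA, an angiogenic factor, was 602 at 6 h, 3905 at 72 h and 874 in the control.

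Probe sets of the same gene gave a limited check within the arrays. They read the same RNA on the same 2 arrays, and some may read shared stretches of a transcript, so their agreement is not independent. Counted by probe set, 283 of 24050 (1.18%) were at least 2-fold higher and 847 (3.52%) lower. Of the 477 lower genes, 228 had another measured probe set. In 180 of the 228 every other probe set was also below the control, in 99 at least 1 was also past 2-fold, and in 29 no other one was lower. Of the 147 higher genes, 61 had another measured probe set, with every other one above the control in 41, another past 2-fold in 11 and no other one above in 7. Put by probe set, 127 of 361 others (35.2%) were past 2-fold for the lower genes and 11 of 97 (11.3%) for the higher genes, with median log2 ratios of -0.62 and 0.36.

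**Figure D4:**
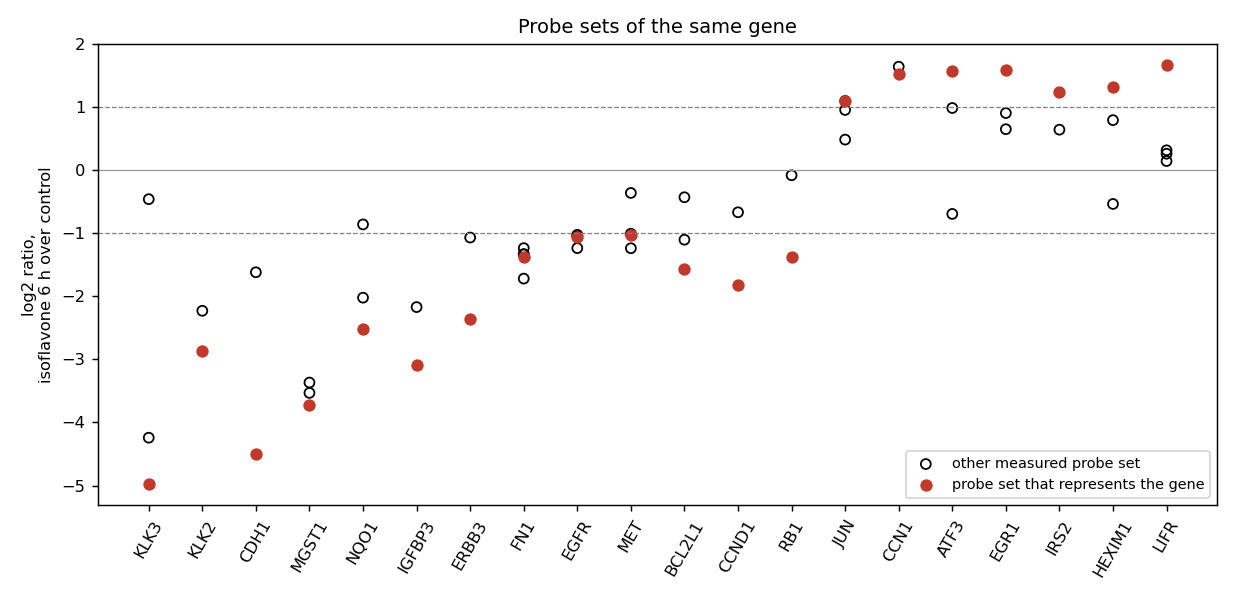
Log2 ratio of isoflavone 6 h over control (vertical axis) of the measured probe sets of 20 genes named in the text; the red point is the probe set that represents the gene, open points are its others, and dashed lines mark 2-fold. The probe sets of MGST1, FN1, EGFR and CCN1 lie together, while those of KLK3, RB1 and LIFR spread. The 2 points of CDH1 also lie apart, but both are bounds set by the floor.

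Signal and gene length went with the calls. Among genes whose higher signal was 200 to 400, 221 of 1820 (12.1%) were lower and 57 (3.13%) higher, while among those of 1000 to 3000 the counts were 42 (1.25%) and 34 (1.01%) of 3359, and among the 509 genes of 10000 and over, 0 and 2. A gene whose higher signal is under 194.2, 2 times the floor, cannot pass 2-fold. Of genes spanning 200 kb and over in the RefSeq annotation, 68 of 939 (7.24%) were lower and 8 (0.85%) higher, beside 101 (3.72%) and 37 (1.36%) of 2716 genes under 10 kb. Over the autosomes and the X chromosome the lower share ran between 2.66% on chromosome 14 and 5.38% on chromosome 4, and the higher share between 0 of 130 genes on chromosome 21 and 6 of 234 (2.56%) on chromosome 13. Whether dim signals or long genes took part in the excess of lower genes was not tested.

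**Figure D5:**
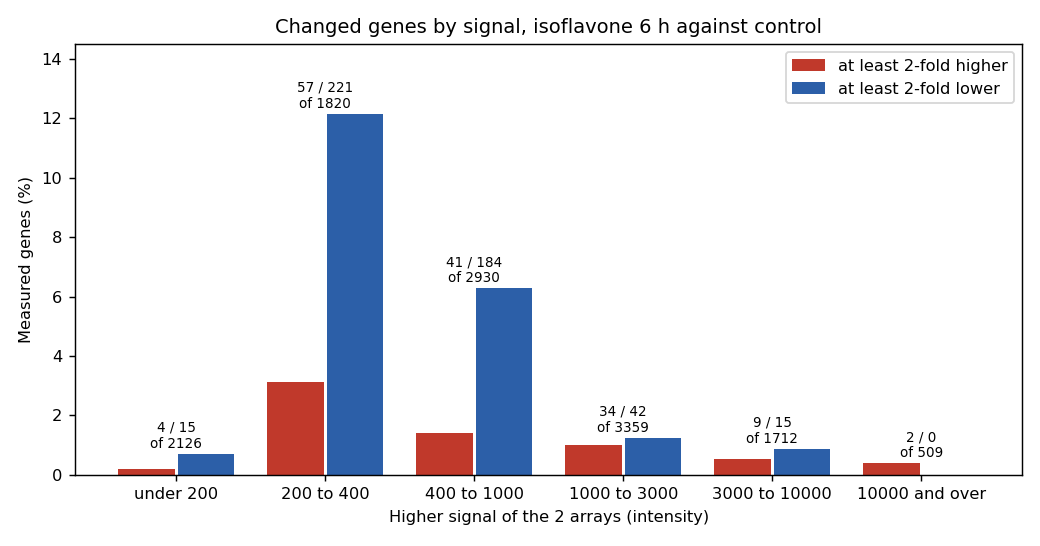
Share of measured genes (vertical axis, %) that were at least 2-fold higher (red) or lower (blue) with isoflavone for 6 h, by the higher signal of the 2 arrays (horizontal axis, intensity); numbers above the bars are the counts higher and lower of the genes measured in the class. The lower share is largest at 200 to 400 (12.1%) and is 0 of 509 genes at 10000 and over.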

How the data were processed

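The authors made the deposited intensity values with MAS5, as 1 linear signal per probe set on each of the 5 arrays, scaled to a common level. The MAS5 version, target level and detection calls were not given in the sources used here. Values were used as deposited, with Python 3.11.15, numpy 2.4.6 and pandas 2.3.3. Probe sets with several gene symbols (1801) or outside the gene table (11721) were left out, and symbols were updated through RefSeq. A gene took its probe set of highest mean signal, or that of the study's list of altered genes, of which 7 are in the table. The floor, the measured rule and the fold are as in the text.

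Genes were named as members of 47 lists, as the 20 largest rises and falls that reached 388.4, which is 4 times the floor, on either array, as the 10 largest each way with both signals above the floor, and as genes of the study's list. The members and the lists were chosen with earlier results of these data known, and 3 lists and some genes, marked in the text, after the values were seen. Y-linked genes and some others are not reported here. Promoters are from RefSeq (GRCh38.p14), with both strands searched. The rule was tested on data simulated from the control array, with small added noise and changes only in genes well above the floor. That test cannot show how often dim genes are called wrongly. The alternatives were quantile normalization, median ratio scaling, other floors, other probe set rules, rules of 1.5-fold and 3-fold and, chosen after seeing the data, leaving out genes low on BR-DIM 48 h.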

Additional observations from a re-analysis of the deposited data

Results flagged for a closer look

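Of the genes named above, 14 lay at least 2-fold below the control with isoflavone for 6 h and at least 2-fold above it with isoflavone for 72 h, as log2 ratios to the 1 control array. The named genes were chosen with earlier results of these data known, and no such count was taken over all measured genes. The difference between the 2 times was not tested, since each time is 1 array, and chance alone would place some genes on opposite sides. In the amino acid and stress response these were NUPR1 (-2.29 at 6 h and 1.73 at 72 h), STC2 (-1.84 at 6 h and 2.39 at 72 h), DDIT4 (-1.79 at 6 h and 2.41 at 72 h), GDF15 (-1.46 at 6 h and 2.76 at 72 h), TRIB3 (-1.38 at 6 h and 1.45 at 72 h), PSPH (-1.28 at 6 h and 1.77 at 72 h), VLDLR (-1.27 at 6 h and 1.22 at 72 h) and SLC7A11 (-1.01 at 6 h and 3.74 at 72 h). Among the antioxidant genes they were NQO1 (-2.52 at 6 h and 2.12 at 72 h) and HMOX1 (-1.03 at 6 h and 1.43 at 72 h). The remaining ones were IGFBP3 (-3.09 at 6 h and 2.65 at 72 h), ESRP1 (-1.95 at 6 h and 1.24 at 72 h), STEAP2 (-1.50 at 6 h and 1.09 at 72 h) and INSM1 (-1.17 at 6 h and 1.43 at 72 h). STC2, VLDLR, IGFBP3, ESRP1 and INSM1 were under the floor with isoflavone for 6 h, so their values at that time are bounds.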

How the results depend on the processing

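With 1 array per condition, no replicate could be left out, and no paired analysis was possible because no group has more than 1 sample. The counts depended on the floor. Against 147 higher and 477 lower genes, 466 were higher and 905 lower with no floor, and 47 and 67 once the floor was set to the 75th percentile (471.7), where 8061 genes were measured. With the floor as a pseudocount 95 genes were higher and 330 lower, and 55 of the 147 higher and 253 of the 477 lower genes kept their calls. A 1.5-fold rule gave 889 higher and 1435 lower genes, and a 3-fold rule 11 and 122. The other alternatives kept both counts within 1.5 times, and under each one more genes were lower than higher. With quantile normalization 395 of the 477 lower and 139 of the 147 higher genes kept their calls. Of 113 named genes past 2-fold, 49 stayed past it under each alternative that gave them a value, 23 of 113 fell short with the mean of all probe sets, and 36 of 72 with the higher floor. With the _s_at and _x_at probe sets left out, HEXIM1 turned to -0.53, a bound, and MT1G to 0.27, each then read from another probe set. Among dim genes the floor, not the difference, limits what can be read.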
